A study of Schizosaccharomyces pombe with 3 samples.

Results

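The genes described here encode the pre-mRNA splicing machinery of the fission yeast Schizosaccharomyces pombe. They were chosen by name as the nuclear protein-coding genes whose symbol is prp, cwf, smd or lsm followed by digits. The rule itself uses no measured value, though it was set with earlier results of these data known. The rule found 54 of 5113 annotated nuclear protein-coding genes, namely 21 prp, 22 cwf, 3 smd and 8 lsm genes, with 13 on chromosome I, 28 on chromosome II and 13 on chromosome III. Among them, lsm1 is annotated as a subunit of the mRNA decapping complex and stayed in the set because the rule goes by symbol.

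The study sequenced chromatin immunoprecipitates (ChIP-seq) from log-phase cells of strain 972 h- in YEA medium with 2% glucose, 1 library per group. In the Pol II library, chromatin without a TAP tag was incubated on Protein G beads with 4H8, an antibody against the C-terminal repeats (CTD) of RNA polymerase II. In the Med7 library, chromatin of cells carrying TAP-tagged Med7, a subunit of the Mediator coactivator, was incubated with IgG beads. In the bead control, chromatin without a tag met beads and no antibody. The Med7 library differs from the control in tag and bead type as well as in its target, and these cannot be told apart here.

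Introns are removed by the spliceosome, which assembles anew on each transcript from small nuclear ribonucleoprotein particles (snRNPs) and many non-snRNP proteins. Sm and LSm proteins form rings around the small nuclear RNAs, the U1 and U2 particles mark the ends of the intron, and the U4/U6 and U5 particles join before helicases remodel the whole. In fission yeast much of the core was catalogued as complexed with the Cdc5 protein, which is the origin of the cwf names, while the prp names come from mutants defective in pre-mRNA processing.

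The libraries held 1829877 (Pol II), 917064 (Med7) and 678947 (bead control) aligned reads, of which 1687058, 696101 and 630825 lay in the nuclear genome outside the ribosomal DNA. Mitochondrial reads made up 7.73%, 23.8% and 6.84% in the same order of libraries. Levels are RPM, the read count scaled to equal depth over those nuclear reads, or RPM per kilobase of transcript (RPKM). A fold is a ChIP library's RPM over the bead control's in the same window, and its interval is the exact 95% binomial interval, which covers counting error only. A gene was called high when its fold reached 2 and its interval lay above 1, and low when its fold was 0.5 or under and its interval lay below 1. Since there was 1 library per group, no difference has a replicate check, and every fold compares these libraries rather than the conditions they stand for.

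The sequences upstream of the 2 genes with the highest Med7 fold and of the gene with the highest Pol II fold are shown first, as 250 bases before the annotated transcript start, and beside them the short gap upstream of the gene that was low in both ChIP libraries. They were read from the assembly ASM294v3, 5′ to 3′ on the gene's own strand. Capitals mark matches to TATAAA or CCAAT on either strand, where the 8 capitals of cwf12 hold TATAAA once on each strand, overlapping.
cwf12 (chrII:2794285-2794534, minus strand): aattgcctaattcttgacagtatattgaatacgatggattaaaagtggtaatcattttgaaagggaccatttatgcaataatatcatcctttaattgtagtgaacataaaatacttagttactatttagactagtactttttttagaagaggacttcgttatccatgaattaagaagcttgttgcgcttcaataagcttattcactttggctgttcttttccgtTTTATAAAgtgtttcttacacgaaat
lsm6 (chrI:3924127-3924376, minus strand): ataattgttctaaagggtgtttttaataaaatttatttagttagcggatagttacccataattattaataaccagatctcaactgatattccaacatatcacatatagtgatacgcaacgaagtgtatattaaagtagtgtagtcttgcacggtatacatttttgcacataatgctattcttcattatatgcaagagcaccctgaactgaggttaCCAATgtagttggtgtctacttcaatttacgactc
prp40 (chrI:5375317-5375566, plus strand): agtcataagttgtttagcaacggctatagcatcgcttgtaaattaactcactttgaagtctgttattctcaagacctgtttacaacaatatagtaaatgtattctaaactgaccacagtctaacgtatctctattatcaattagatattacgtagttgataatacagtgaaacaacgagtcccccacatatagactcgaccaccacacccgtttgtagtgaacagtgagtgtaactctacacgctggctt
cwf26 (chrIII:2163174-2163212, plus strand, the 39 bases between the starts of cwf26 and its divergent neighbour tfg1): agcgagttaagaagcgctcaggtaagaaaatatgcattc

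Across the 54 gene bodies, from transcript start to end, the splicing factor genes lay near the genome's typical Pol II level and none stood high. Their Pol II folds ran from 0.300 to 1.30, with a median log2 fold of -0.52 against -0.45 over all 4968 genes measured. No member was called high, against 6.82% of all genes measured, and 4 were called low (cwf26, lsm8, cwf23 and cwf5, 7.41% of members), against 11.5% of all. Of the 54 members, 50 lay within 2-fold of the bead control, against 4052 of all 4968 genes measured. Above the all-gene median fold of 0.733 lay 22 members. The interval lay wholly above that median for 5 members (prp40, cwf24, cwf21, prp3 and cwf25) and wholly below it for 11. Over all 4968 genes measured, it lay wholly above for 1380 and wholly below for 1005. The 54 bodies pooled gave 0.722-fold (0.701 to 0.745). Scaled by the median 1-kb bin instead, which moved all genes by 0.49 on the log2 scale, they gave 1.01-fold, so the side of the control on which the pooled value lay turned with the scaling.

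**Figure D1:**
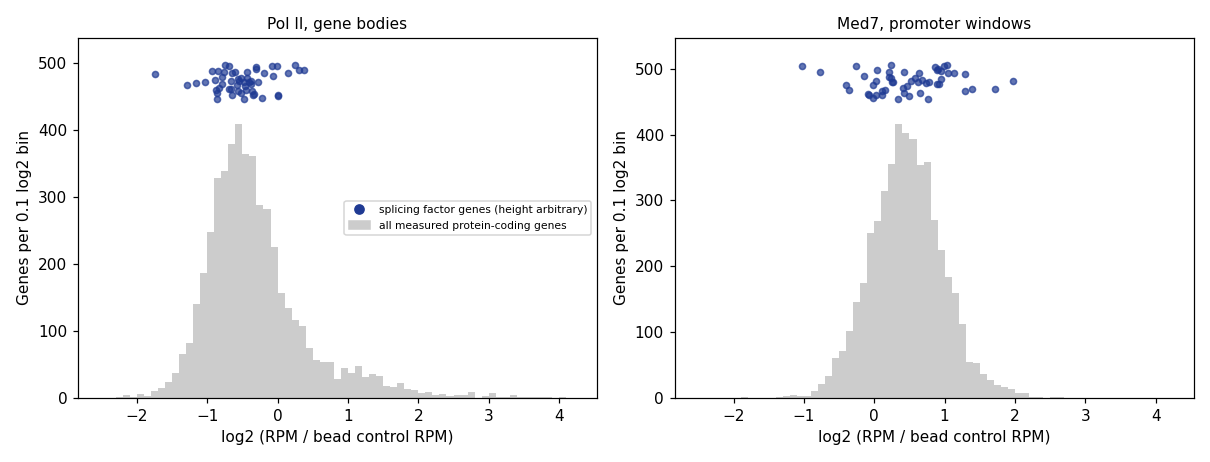
Histograms of the log2 fold over the bead control for all measured protein-coding genes (grey) of Pol II over gene bodies (left) and Med7 over promoter windows (right), with each splicing factor gene as a blue point at an arbitrary height. The points of the splicing factor genes cover the bulk of both histograms, and on the left none lies in the right-hand tail past 2-fold.

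Among the Sm core genes, whose products form the ring around the U1, U2, U4 and U5 RNAs, smd1, smd2 and smd3 had Pol II folds whose intervals overlap. In the Pol II library their bodies had 59.4, 66.8 and 62.7 RPKM. In the bead control the same bodies had 82.3, 86.8 and 81.2 RPKM. The Pol II folds were 0.722 (0.494 to 1.07) for smd1, 0.769 (0.507 to 1.19) for smd2 and 0.772 (0.495 to 1.23) for smd3, and each interval holds both 1 and the all-gene median. These transcripts are short, at 605 to 828 bp, and hold 2 or 3 introns each.

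The LSm genes spread more widely, and most of them are short, so their intervals are wide. Lsm proteins from Lsm2 to Lsm8 ring the U6 RNA, and Lsm1 takes the place of Lsm8 in the cytoplasmic ring that acts in mRNA decay. The highest was lsm7, with 66.8 RPKM in the Pol II library against 53.9 in the control, a fold of 1.24 (0.733 to 2.19) from 63 and 19 reads. The lowest was lsm8, with 48.7 RPKM in the Pol II library against 119 in the control, a fold of 0.409 (0.246 to 0.682) from 35 and 32 reads. Between these lay lsm2 at 0.994 (0.678 to 1.48), lsm1 at 0.823 (0.573 to 1.20), lsm6 at 0.670 (0.455 to 0.996), lsm3 at 0.637 (0.471 to 0.867), lsm5 at 0.629 (0.421 to 0.950) and lsm4 at 0.621 (0.507 to 0.762). The intervals of lsm7 and lsm8 do not overlap, while those of neighbours in this order do. Most of the annotated lsm4 transcript, 2847 of 2864 bp, is shared with bpl1 on the opposite strand, and the read lists carry no information on the transcribed strand. When duplicate reads were collapsed, lsm8 was at 0.546-fold and no longer called low.

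The U1 and U2 group, whose products recognise the ends of the intron, held the member with the highest Pol II fold. That was prp40 (SPAC4D7.13, chromosome I), a U1 snRNP-associated protein that in budding yeast bridges the U1 particle to factors at the branch point. Its body had 105 RPKM in the Pol II library, against 80.8 RPKM in the control, a fold of 1.30 (1.05 to 1.62), and with reads scaled to nuclear depth prp40 alone among the members had an interval wholly above 1. Its transcript overlaps no other annotated protein-coding gene, and its neighbours fet5 and hrp3 stood at 0.625 and 0.752-fold. Along its length the fold was 1.61 in the first of 3 equal sections, 0.957 in the middle and 1.55 in the last.

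The other 5 genes of this group lay below it. The SF3B1 subunit gene prp10, whose product contacts the branch point, had 65.7 RPKM in the Pol II library, against 76.9 in the control, a fold of 0.855 (0.715 to 1.02). The U1 snRNP gene prp39 was at 0.778 (0.625 to 0.973), and prp11, which encodes a DEAD-box RNA helicase, was at 0.577 (0.485 to 0.689). The SF3B subunit gene prp12 lay at 0.805 and prp2, the gene of the U2AF subunit U2AF-59, at 0.677, and the group's median log2 fold was -0.34.

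Genes of the U4/U6 and U5 particles ran from 0.526 to 0.953-fold with a median log2 fold of -0.61, and none was called. The U4/U6 protein gene prp3 was the highest, with 81.4 RPKM in the Pol II library, against 85.4 in the control, a fold of 0.953 (0.834 to 1.09). Its annotated transcript of 5718 bp shares 3480 bp with uso1 and nnf1, and the middle section (1.42-fold) stood above both the first (0.830) and the last (0.672). The U5 GTPase gene cwf10, which drives rearrangements at activation, lay at 0.757 (0.627 to 0.916), and prp24, an RNA-binding protein that in budding yeast anneals U4 with U6, at 0.783 (0.654 to 0.939). The tri-snRNP gene prp31 lay at 0.657 (0.524 to 0.826). The lowest of the group were prp38, a factor of spliceosome activation, at 0.551 (0.389 to 0.785), and the U5 helicase gene prp28 at 0.526 (0.416 to 0.668), the nearest value above the 0.5-fold limit. The tri-snRNP gene prp1, the U5 gene prp18 and the splicing kinase gene prp4 lay between 0.556 and 0.717-fold.

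The Prp19 complex and Cwf genes, 25 in all, held the lowest member as well as several near the control level, and their median log2 fold was -0.52. The lowest was cwf26 (SPCC1620.10, chromosome III), the counterpart of budding yeast Bud13, a protein of the complex for pre-mRNA retention and splicing. Its body had 29.8 RPKM with Pol II, 84.4 with Med7 and 99.3 in the control, a Pol II fold of 0.300 (0.213 to 0.421) from 65 and 81 reads. It stood at percentile 0.443 of all genes measured, and its 3 sections were all low, at 0.316, 0.235 and 0.347-fold. The neighbours on both sides were below the control too, at 0.656-fold (0.519 to 0.833) for tfg1, a subunit gene of the transcription factor TFIIF that starts 39 bp away on the other strand, and 0.563-fold (0.490 to 0.647) for the convergent gene SPCC1620.12C. The part of this neighbourhood in the low value was not tested.

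The other low members of this group were cwf23, a DnaJ-domain protein gene, with 38.2 RPKM in the Pol II library against 85.7 in the control (0.446-fold, 0.309 to 0.646), and cwf5, an RNA-binding protein gene, with 47.2 against 96.7 RPKM (0.489-fold, 0.358 to 0.669). Scaling by the median 1-kb bin moved all folds up, and of the 4 low calls only that of cwf26 remained. Above the limit lay cwf22, whose counterpart in other species contacts the exon junction complex, at 0.544 (0.449 to 0.662). The upstream neighbour of cwf23 on chromosome III is prp11, itself among the lower members, 1050 bp upstream in tandem.

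At the upper end, cwf24, which encodes a zinc-finger protein, had 90.8 RPKM in the Pol II library against 76.8 in the control, a fold of 1.18 (0.941 to 1.50). Its transcript shares 1885 of its 2064 bp with vts1. The transcript of cwf21 shares 593 bp with rog1, and its fold was 1.10 (0.886 to 1.39). At the control level lay the Prp19 complex subunit gene cwf7 at 1.00 (0.663 to 1.56) and cwf18 at 1.00 (0.730 to 1.40), and just below them was cwf25, a factor that budding yeast needs for the catalytic steps, at 0.945 (0.740 to 1.22). The ubiquitin ligase gene prp19 itself was at 0.742 (0.598 to 0.924), and the WD-repeat gene prp17, whose annotated transcript lies wholly within that of fab1, at 0.741 (0.662 to 0.831). Of the other Prp19 and Cwf genes named for their Med7 values, cwf12, cwf16, cwf28, cwf15 and cwf3 lay between 0.563 and 0.790-fold. The remaining 9 genes of the group spanned 0.591 to 0.808-fold.

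The late helicases, which between them remodel the spliceosome during catalysis, release the spliced mRNA and take the complex apart, were prp43 at 0.878 (0.721 to 1.07), prp22 at 0.554 (0.462 to 0.664) and prp16 at 0.540 (0.452 to 0.647). The interval of prp43 did not overlap those of prp22 and prp16. In the Pol II library prp43 had 80.7 RPKM, against 91.9 in the control, while prp16 had 48.7 against 90.2.

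**Figure D2:**
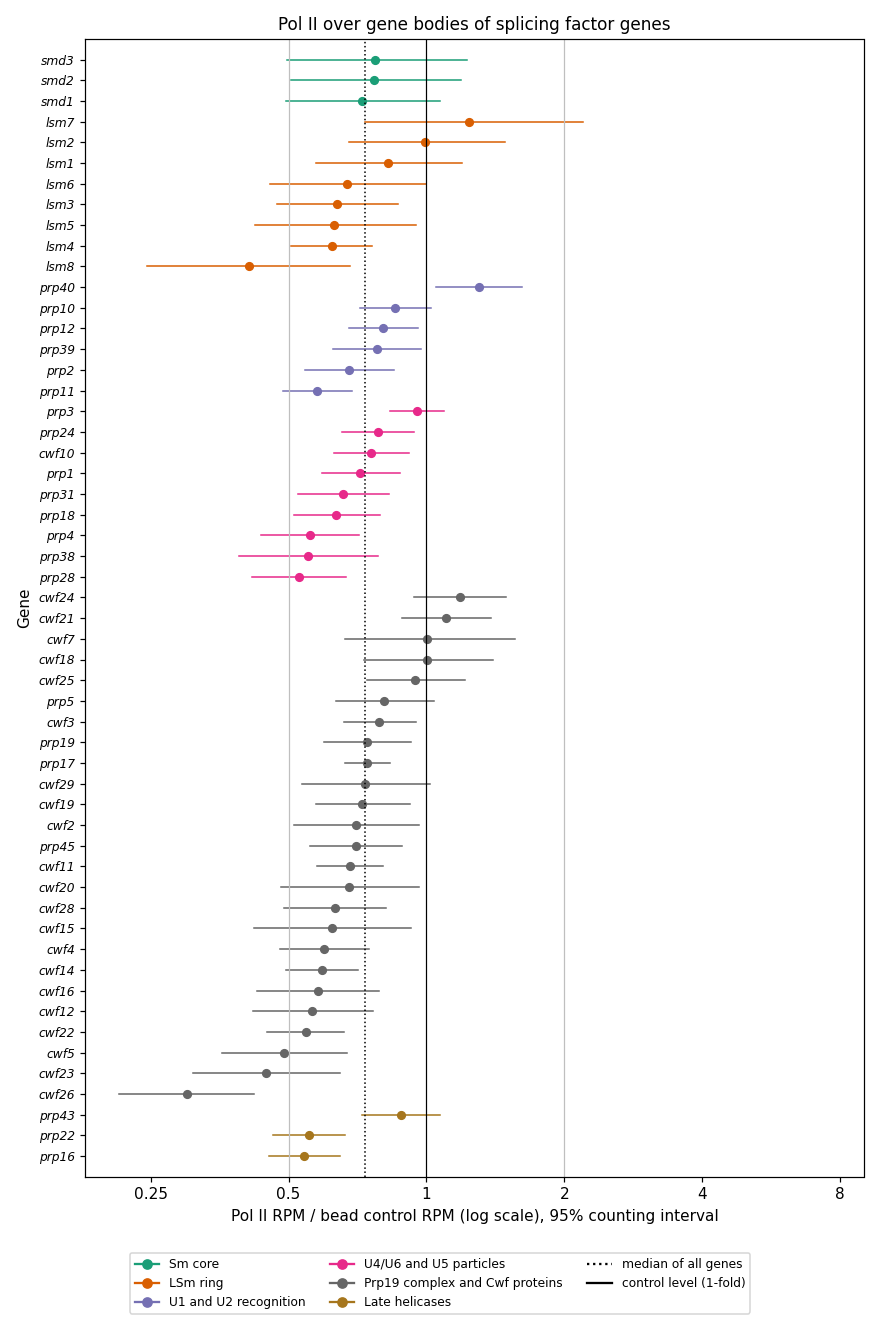
Pol II fold over the bead control for each of the 54 gene bodies, ordered by role and then by fold on a log axis, with bars for the 95% counting interval, a solid line at the control level, a dotted line at the all-gene median of 0.733 and grey lines at 0.5 and 2-fold. Most intervals cross or lie near the dotted line, cwf26 stands apart on the left at 0.300-fold, and prp40 is highest at 1.30-fold.

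**Figure D3:**
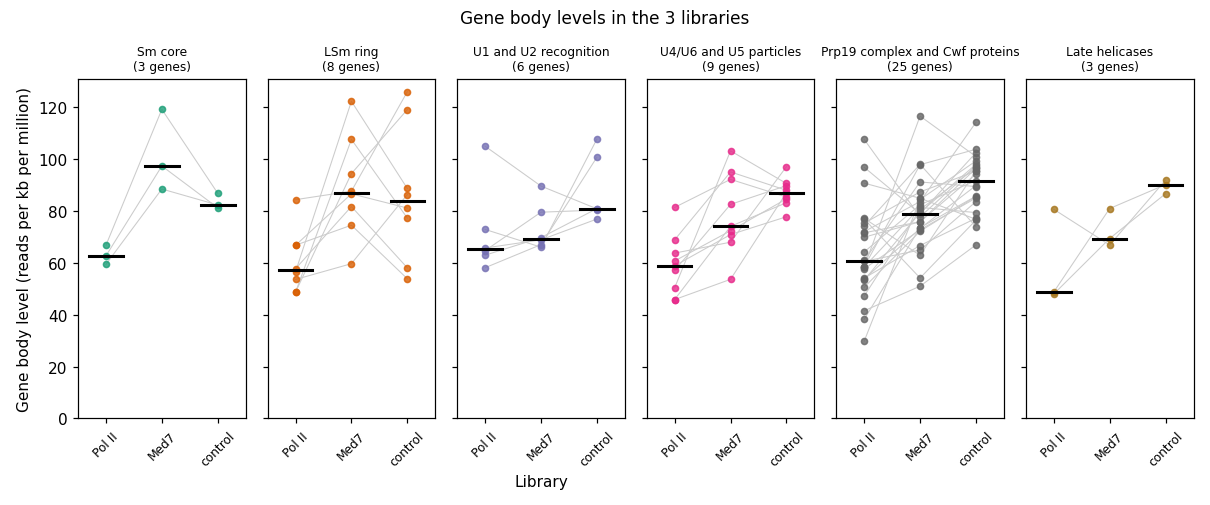
Gene body level in RPKM of each splicing factor gene in the Pol II, Med7 and bead control libraries, in a panel per role, with a black bar at the group median and a grey line joining the values of a gene. At this scaling by nuclear reads the Pol II medians lie below the control medians in all 6 panels, and the median over the 54 genes was 60.7 RPKM (Pol II), 79.5 RPKM (Med7) and 86.9 RPKM (control).

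Members with and without introns lay close together in Pol II level. Of the 54 genes, 36 (66.7%) carry at least 1 annotated intron, against 48.3% of all protein-coding genes, and all smd and lsm genes do. The median log2 Pol II fold was -0.47 in members with introns and -0.57 in members without, against -0.51 and -0.38 over all genes with and without introns. At least 10% of the transcript is shared with another protein-coding gene in 13 members, whose median was -0.43, and the other 41 had -0.56.

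Along the gene, Pol II over the splicing factor genes was highest in the section next to the transcript end, and in that section it lay below the value of other genes. With each body divided into 3 equal sections, the pooled fold of the members was 0.689 (0.653 to 0.728) in the first, 0.701 (0.666 to 0.739) in the middle and 0.776 (0.737 to 0.818) in the last. The intervals of the middle and last sections overlap slightly. The same sections of the other protein-coding genes gave 0.898, 0.987 and 1.14. Pooled values weigh genes by their reads, so the 4575 other genes whose Pol II body was measured and not high were taken as well, a choice made after the values were seen. They gave 0.715, 0.760 and 0.913 (0.908 to 0.919), and the members' last section lay below that. Among single members, 34 of 54 were higher in the last section than in the first. The same count was not taken over other genes, whose pooled fold also rose toward the end.

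In 100-bp bins around the transcript end, the members also lay below other genes on both sides of the end. In the last 100 bp before the end the members had a Pol II fold of 0.856 (0.746 to 0.985), against 1.30 (1.28 to 1.32) over all genes and 1.08 (1.06 to 1.10) over the other genes that were not high. In the 100 bp after it the values were 0.801 in the members, 1.25 over all genes and 1.07 over the genes that were not high. Near the start, the members were lowest at 0.575 (0.499 to 0.664) in the bin 100 to 199 bp downstream, against 0.857 over all genes and 0.684 over those not high.

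**Figure D4:**
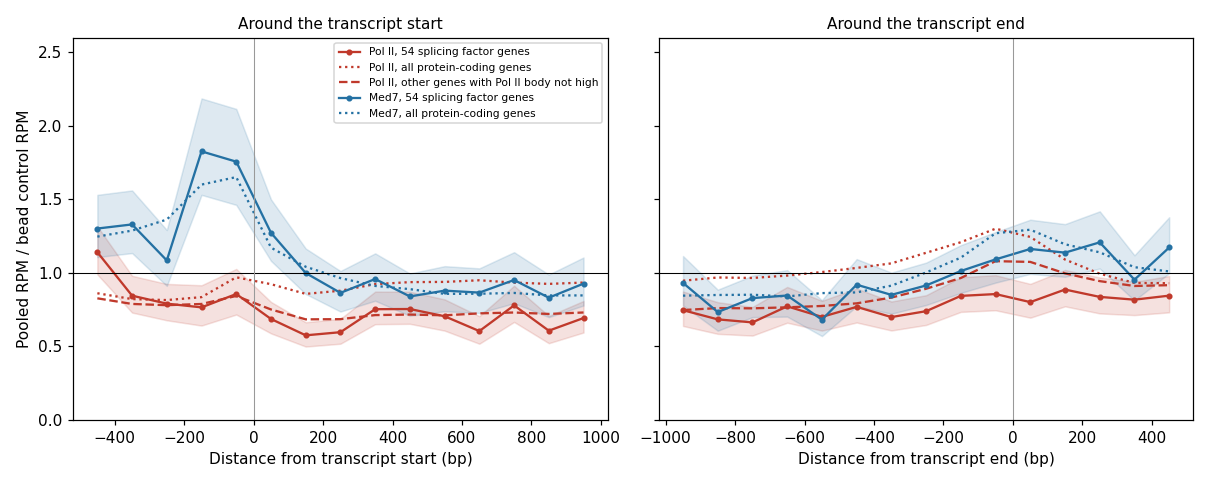
Pooled Pol II (red) and Med7 (blue) fold over the bead control in 100-bp bins by distance from the transcript start (left) and end (right), for the 54 splicing factor genes (solid, shaded 95% counting interval), all protein-coding genes (dotted) and, for Pol II, the other genes whose body was not high (dashed). Med7 over the members peaks just upstream of the start at 1.83-fold, and their Pol II is at 0.856-fold in the last bin before the transcript end, where the dotted line reaches 1.30.

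Med7 was measured over the promoter window that begins 500 bp before the transcript start and ends 100 bp past it, and again the splicing factor genes lay where the genome did. Their median log2 fold was 0.46 in 53 members measured, against 0.45 over 4944 genes. Of the 53, 8 were called high (15.1%), against 14.0% of all, and 1 was called low, against 0.263% of all. The fold was above 1 in 43 members, and in 17 of them so was the whole interval. Over all 4944 genes measured, these counts were 4056 and 1257. The window of lsm2 held too few positions with a unique sequence to be measured by the rule used here. Its reads gave 48.8 RPM in the Med7 library against 15.8 in the control, from 34 and 10 reads.

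The highest Med7 fold was that of cwf12 (SPBC32F12.05C), the counterpart of budding yeast Isy1, a component of the activated spliceosome. Its window had 74.7 RPM for Med7, 20.8 RPM for Pol II and 19.0 RPM in the control, a Med7 fold of 3.93 (2.07 to 8.08) from 52 and 12 reads. Its start lies 536 bp from that of pch1, the cyclin partner of a Pol II kinase, which is transcribed away from it, so the window covers most of a shared intergenic region. The sequence shown above has its TATAAA pair 26 and 24 bp before the start. Over the cwf12 body the Pol II fold was 0.563 (0.417 to 0.765), below the all-gene median of 0.733, though that median lies inside the interval.

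Next came lsm6, with 67.5 RPM for Med7, 17.2 RPM for Pol II and 20.6 RPM in the control, a Med7 fold of 3.28 (1.74 to 6.60). Its start lies 501 bp from the divergent gene sec67, and its only match among the motifs searched is the CCAAT 35 bp upstream. Then followed cwf16 at 2.61 (1.48 to 4.84), from 49 and 17 reads, and cwf28 at 2.45 (1.38 to 4.56), from 46 and 17 reads. Like cwf12, the windows of lsm6, cwf16 and cwf28 had more Med7 reads and fewer control reads than the member medians given above. In these 4 genes, of 53 members measured, the whole interval lay above the all-gene median fold of 1.37. Over all 4944 genes measured, it did so in 254.

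The gene with the highest Pol II body, prp40, was also among the high Med7 windows. It had 50.3 RPM in the Med7 library against 20.6 in the control (2.44-fold, 1.26 to 5.03). Its call was lost with scaling by all aligned reads, without the read shift and in the narrower window described below. The sequence shown above for prp40 has no match to any of the motifs searched. The other high windows were prp24 at 2.19 (1.34 to 3.69), cwf22 at 2.06 (1.22 to 3.57) and cwf25 at 2.05 (1.23 to 3.51). Just outside the limit lay lsm5 at 1.99 (1.16 to 3.50), prp39 at 1.93 (1.15 to 3.32), prp3 at 1.92 (1.17 to 3.23) and prp10 at 1.90 (1.12 to 3.31), whose intervals overlap those of the genes inside it. With reads scaled by all aligned reads, mitochondrial ones included, 4 of the 8 calls remained, and with a narrower window, 250 bp before to 50 bp past the start, 4 of the 8 remained among 15 called of 51 measured, when 22.3% of all genes were high. The genes called under both were cwf12 and lsm6.

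At the low end, cwf26 had 28.7 RPM in the Med7 library against 58.6 in the control, a fold of 0.490 (0.269 to 0.866) from 20 and 37 reads, at percentile 0.243 of all genes measured. Its Pol II and Med7 folds are both set against the same bead control, so the low values are not independent of each other. Its window runs across the 39 bp gap shown above into the transcript of tfg1. When duplicate reads were collapsed it was at 0.559-fold and no longer called, and without the read shift it was at 0.695-fold and not called either. In the narrower window it was at 0.330-fold and called low. The 39 bp gap alone was not measured. The other members with low values were cwf15 at 0.585 (0.316 to 1.06), lsm7 at 0.755 (0.449 to 1.26), cwf3, which encodes a scaffold protein, at 0.777 (0.461 to 1.30), lsm3 at 0.837 (0.460 to 1.52) and prp31 at 0.906 (0.551 to 1.49). Each of these 5 intervals holds 1, so no difference from the control was detectable at this depth. Below the all-gene median fold of 1.37 lay the whole intervals of cwf26, cwf15, lsm7 and cwf3, against 310 of all 4944 genes measured.

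Sm and LSm genes spanned most of the Med7 range. The window of smd1 had 69.0 RPM in the Med7 library against 38.0 in the control (1.81-fold, 1.09 to 3.09), while smd2 was at 1.26 (0.774 to 2.06) and smd3 at 1.01 (0.571 to 1.81). Of the LSm genes not yet named for Med7, lsm8 was at 1.85 (1.11 to 3.15), lsm1 at 1.21 (0.752 to 1.96) and lsm4 at 0.950 (0.605 to 1.50). The 2 genes at the extremes of the LSm order for Pol II bodies, lsm7 and lsm8, were thus in the opposite order for Med7, with intervals that overlap. The other genes named for Pol II had Med7 folds of 1.86 (cwf18), 1.69 (prp43), 1.67 (cwf24), 1.20 (cwf7), 1.18 (cwf5), 1.15 (prp38), 1.11 (cwf23), 1.08 (cwf21 and prp28) and 0.986 (prp16). The 15 members not named for Med7 ran from 0.939 to 1.87-fold, and none was called.

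By role, the U1 and U2 group had the highest median Med7 log2 fold, 0.89 in 6 genes, and the LSm ring the lowest, 0.27 in 7. These groups are small and their members overlap. Pooled, they had 1.57-fold (1.27 to 1.95) and 1.41-fold (1.18 to 1.69), and those intervals overlap too. By distance, Med7 over all 54 members was highest from 200 to 101 bp before the start, at 1.83-fold (1.53 to 2.19), and in the next 100 bp it was 1.76-fold (1.46 to 2.12). All genes had 1.60 and 1.65-fold there, inside both intervals. From 300 to 201 bp before the start the members had 1.085-fold (0.912 to 1.29). All genes had 1.36-fold there, above that interval.

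**Figure D5:**
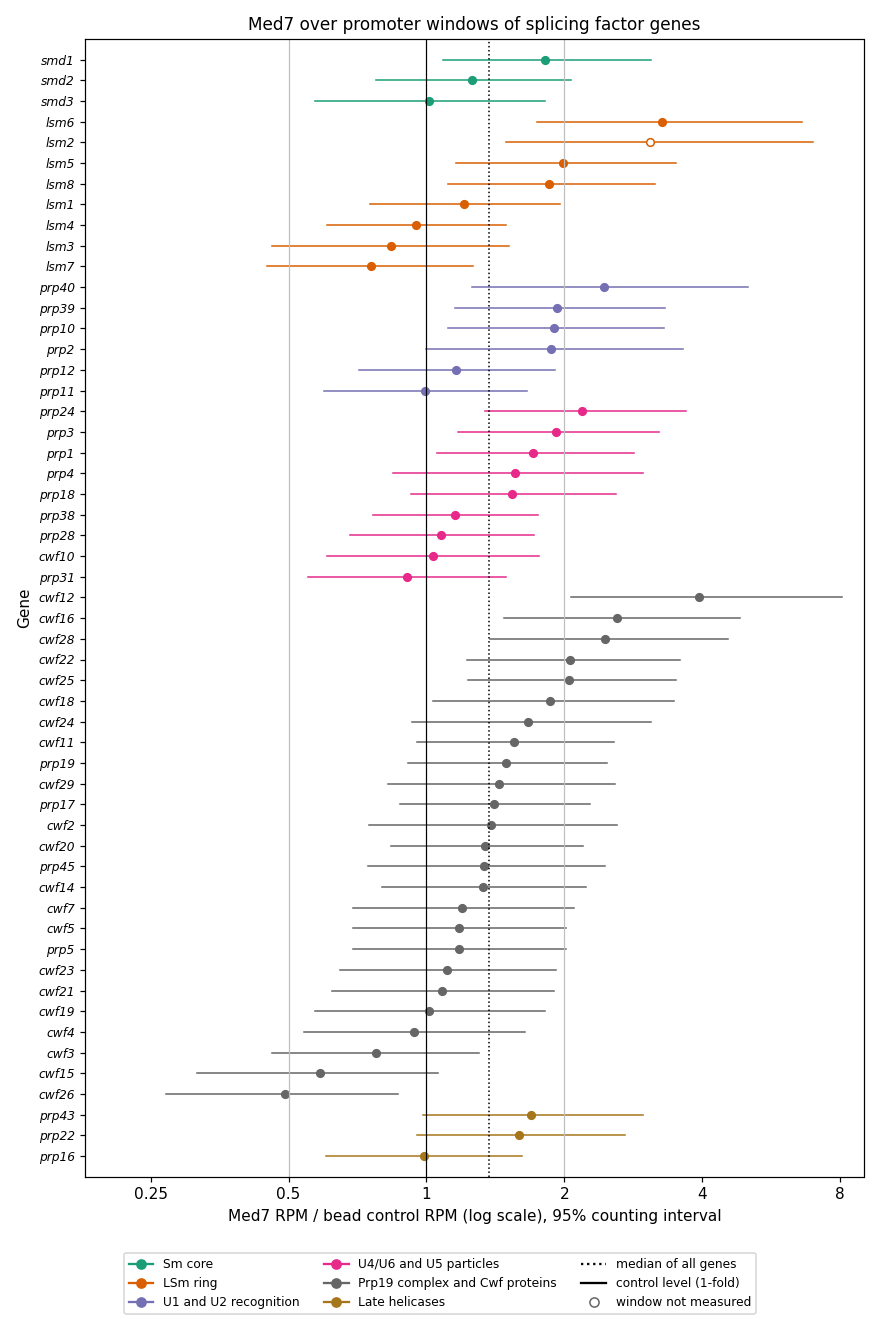
Med7 fold over the bead control in the promoter window of each of the 54 genes, ordered by role and then by fold on a log axis, with bars for the 95% counting interval, a solid line at the control level, a dotted line at the all-gene median of 1.37 and an open symbol for the unmeasured window of lsm2. The windows of cwf12 (3.93-fold) and lsm6 (3.28-fold) lie farthest right among those measured, and that of cwf26 (0.490-fold) farthest left.

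In the same promoter windows, Pol II had a median log2 fold of -0.40 in the members and -0.41 over all genes. It was called high in 2 members, against 4.45% of all genes, and low in 7, against 14.0% of all. The high windows were those of prp38, with 197 RPM in the Pol II library against 69.8 in the control (2.82-fold, 2.06 to 3.96), and prp39, with 96.0 against 36.5 RPM (2.63-fold, 1.70 to 4.27). Both lie downstream of genes with high Pol II bodies that are transcribed on the same strand, namely fba1, the glycolytic aldolase gene, at 11.5-fold over its body and 538 bp from prp38, and ght2, a hexose transporter gene, at 3.48-fold and 344 bp from prp39. The bodies of prp38 and prp39 were at 0.551 and 0.778-fold. The part of the upstream genes in these windows was not tested. In the bin 500 to 401 bp upstream of the start, Pol II over the members was 1.14-fold with all 54 genes and 0.822-fold without these 2.

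The windows low for Pol II were prp11 at 0.316 (0.182 to 0.544), cwf26 at 0.364 (0.223 to 0.592), lsm4 at 0.374 (0.236 to 0.591), prp31 at 0.417 (0.257 to 0.677), prp17 at 0.422 (0.253 to 0.708), cwf10 at 0.451 (0.268 to 0.765) and prp19 at 0.481 (0.285 to 0.818). All 7 have their upstream neighbour on the opposite strand, which for prp17 is fab1, whose transcript covers that of prp17. Among the 30 measured members with such a neighbour they make up 23.3%, against 17.7% low over all genes with one. Their Med7 folds in the same windows were 0.991 (prp11), 0.490 (cwf26), 0.950 (lsm4), 0.906 (prp31), 1.40 (prp17), 1.03 (cwf10) and 1.49 (prp19).

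Over gene bodies no member was called high or low for Med7, against 0.524% and 0.544% of all genes. The median log2 fold was -0.21 in the members and -0.11 over all genes, and the pooled fold of the members was 0.889 (0.859 to 0.921). The highest were lsm2, lsm5, lsm7, lsm3 and smd2, between 1.37 and 1.41-fold, followed by cwf18 at 1.33 and smd3 at 1.20. The other Sm and LSm bodies were lower, at 1.07 for smd1 and lsm1, 0.793 for lsm8, 0.696 for lsm6 and 0.691 for lsm4. The 9 members under 1 kb had a median of 0.10 on the log2 scale, against 0.01 over all genes under 1 kb.

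Other genes of the splicing machinery, 52 taken from a list of names such as the remaining Sm, U1, U2 and U5 proteins, had a median close to that of the members and reached higher Pol II folds. Their folds ran from 0.402 to 1.68, and pooled they gave 0.822 (0.795 to 0.850), above the members' interval of 0.701 to 0.745. Both intervals cover counting error only. Pooled values weigh genes by their reads, and spp42 alone gave 1545 of the 10986 Pol II reads of this list. Of the 52, 0 were called high for Pol II bodies, against 6.82% of all genes, and 4 low (7.69%), against 11.5%. The median log2 fold of the 52 was -0.53. The low ones were saf2 (0.402), ntr2 (0.436), whose product acts in spliceosome disassembly, bis1 (0.489) and spf38 (0.492). The highest were snu13 (1.68, 1.16 to 2.49), which encodes a protein shared with small nucleolar particles, aar2 (1.62, 1.31 to 2.02), srp2 (1.60, 1.32 to 1.96) and spp42 (1.39, 1.24 to 1.55), the gene of the large U5 core protein called Prp8 in budding yeast. Of these transcripts, aar2 shares 824 of its 2113 bp with pol1 and rps1401, and spp42 shares 2219 of its 7306 bp with sea2. The intervals of these 4 lie above 1 at the scaling by nuclear reads. For Med7, 8 of 49 measured windows (16.3%) were high, against 14.0% of all genes, and 0 low, against 0.263%. The median log2 fold of these windows was 0.41. The highest were usp102 at 3.63 (1.90 to 7.50) and ini1 at 3.17 (1.72 to 6.22). The transcript of usp102, a U1 protein gene, shares 1201 of its 1258 bp with vps25.

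The promoters of the members held no common element among those searched in the 250 bp upstream, on both strands. TATAAA occurred in 26 of 54 (48.1%), against 44.4% of all promoters of the same length, and CCAAT in 17 (31.5%), against 35.4%. The HomolD box CAGTCACA and the HomolE box, elements found at ribosomal protein genes, occurred in 0 members, against 2.62% and 1.21% of all. TGACGT, the core of the ATF/CREB site, occurred in 0, against 5.52%, and ACGCGT, the core of the MCB element of cell-cycle genes, in 1, against 2.64%. A match describes the letters alone, and a missing one says only that these letters are not in the window.

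Few of these genes lie side by side. The pairs next to each other were cwf22 and cwf24, in tandem 647 bp apart, prp11 and cwf23, in tandem 1050 bp apart, and prp18 and lsm2, which converge at a distance of 398 bp. Their Pol II folds were 0.544 and 1.18, 0.577 and 0.446, and 0.636 and 0.994.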

How the data were processed

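The authors deposited the positions of the aligned reads of each library with their strand, without any normalised values. The submitters' processing notes name Bowtie 0.12.7. The sources used here do not give the genome build or how multiply mapping reads were handled. Reads of 45 bases, read as 1-based on ASM294v3, began at non-unique sequence in 0 cases in any library, so this build was used. The deposited reads were counted here at their 5′ end moved 72 bp downstream, duplicates kept, with Python 3.11.15, numpy 2.4.6, scipy 1.17.1 and pandas 2.3.3. This shift came from the peak correlation between read starts on opposite strands. That peak was 0.065 for Pol II, 0.0048 for Med7 and 0.0034 for the bead control. By this measure the Med7 library lay closer to the control than to the Pol II library, which limits the Med7 folds. Genes and spans are those of the RefSeq annotation. A window was measured with at least 20 reads in both libraries together and at least 90% of positions unique in 45 bases. Median log2 folds add 0.5 reads. The fold rule was tested on simulated data. Alternatives covered duplicates, scaling, shift, filters and windows.

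Genes named with values are the 12 highest and 8 lowest Pol II bodies, the 12 highest and 6 lowest Med7 windows, every called member, all smd and lsm genes and those beside a limit; further names were added after the values were seen. The members and lists were chosen with earlier results of these data known. Of 75 names for other splicing genes, 52 were used; the rest were members, repeats, unmatched or, in 3 cases, had another product. All 54 members entered each count unless another number is given. Promoter sequences were read from the RefSeq assembly.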

Additional observations from a re-analysis of the deposited data

How the results depend on the processing

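No paired analysis was possible because each group has 1 library. Member counts and medians below are for Pol II bodies first. With duplicates collapsed the median log2 fold was -0.43 and the pooled fold 0.773. Scaled by the median 1-kb bin, the low count was 1, the median -0.027 and the pooled fold 1.01, above 1 where the reported value was below it; this scaling moved all genes by 0.49 on the log2 scale, and 72 genes in all were then low. Over coding spans 8 of 54 members were low, against 18.8% of all genes. The median there lay 0.026 above that of all genes and the pooled fold was 0.696. Over transcript parts of no other gene, measured in 50 members, it was 0.691. For Med7 promoters, collapsing duplicates left 0 low, against 0.202% of all genes. Without the read shift 5 of 53 were high, against 12% of all genes, and cwf15 was low in place of cwf26. Scaling by all aligned reads gave 4 high, against 5.06% of all genes, and 2 low, against 0.87%. That scaling gave a median of 0.16 and 1.14-fold pooled, and moved all genes by -0.29. In the narrower window, measured in 51 members, 15 were high, against 22.3% of all genes. The median there was 0.63 and the pooled fold 1.58. In the intergenic part, measured in 35 members without cwf26, 12 were high, against 23.4% of all genes, and 0 low, against 0.252%. The median there was 0.81, which is 0.20 above all genes, and the pooled fold was 1.67. No member was high for Pol II bodies under any of these settings, and cwf26 was low in each. The cause of these shifts was not tested. Member promoter windows held 10 to 58 reads in the Med7 library and the control, which limits what a single fold can show.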
